A study of Mus musculus with 16 samples.

Results

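The kainate receptor genes *Grik1* to *Grik5* and the genes of the auxiliary subunits Neto1 and Neto2 were followed in the cortex and cerebellum of mice. These 7 genes were taken by their name in the deposited table, and all 7 were present among the 37583 genes listed. RNA was measured as 16 libraries from 8 C57BL/6J mice, with 1 cortex and 1 cerebellum library per mouse. The 4 groups of 4 libraries were wild-type cortex, A391T cortex, wild-type cerebellum and A391T cerebellum. The A391T mice carried the *Slc39a8* A391T (A393T) mutation, a substitution in the manganese transporter ZIP8, and shared the strain of the wild-type mice. The wild-type animals were male and an age of 12 weeks was stated for the wild-type mice of the study, whereas the zygosity, sex and age of the A391T mice were not given in the sources used here. Counts on genes ran from 20813432 to 30497206 per library. For 8 libraries of 4 mice the genotype differed between deposited names: the cortex libraries CTX447 and CTX448 of the count files were CTX461 and CTX462 in the RPKM table, and the reverse, and likewise for the cerebellum libraries CBLM447, CBLM448, CBLM461 and CBLM462. The names of the count files, which are those of the labels, were used, and results that rest on them are also given with the names of the table and with only the 4 mice named alike in both. A library is named here by its region and mouse, so that CTX480 and CBLM480 are both regions of 1 mouse.

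Kainate receptors are tetrameric glutamate-gated cation channels that act on both sides of the synapse and at extrasynaptic sites. *Grik1*, *Grik2* and *Grik3* encode the subunits GluK1, GluK2 and GluK3, which can form channels alone, whereas *Grik4* and *Grik5* encode GluK4 and GluK5, high-affinity subunits that need a partner of the former kind to reach the surface. Neto1 and Neto2 are transmembrane proteins with CUB domains that bind kainate receptors and alter their desensitization and deactivation.

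Levels were compared between genes in TPM, a unit per gene length in which every library has the same sum. *Grik5* was the most abundant of the 7 in both regions, with 330.2 ± 20.5 TPM over the 8 cortex libraries and 122 ± 4.21 TPM over the 8 cerebellum libraries (SD, n = 8, both genotypes). *Neto1* followed in cortex at 85.9 ± 9.39 TPM, and was the lowest of the 7 in cerebellum at 2.88 ± 0.914 TPM (SD, n = 8 each). The order of the mean levels in cortex was *Grik5*, *Neto1*, *Grik3*, *Neto2*, *Grik4*, *Grik2* and *Grik1*. In cerebellum it was *Grik5*, *Neto2*, *Grik3*, *Grik2*, *Grik1*, *Grik4* and *Neto1*. The ratio of each gene to the next one in this order was tested within libraries, by a two-sided exact sign-flip test over 8 libraries with Benjamini-Hochberg adjustment over the 12 neighbouring pairs of both regions. In cerebellum all 6 neighbouring pairs differed (adjusted p = 0.00937 each, with the same order in 8 of 8 libraries). In cortex 4 of the 6 pairs differed, while *Grik3* and *Neto2* (ratio 1.13, adjusted p = 0.18, exact sign-flip test) and *Grik4* and *Grik2* (ratio 1.08, adjusted p = 0.145, exact sign-flip test) did not differ beyond the spread between libraries. With CPM, which is not divided by gene length, *Grik3* passed *Neto1* in cortex and *Neto2* in cerebellum, and *Grik4* changed places with *Grik2* in cortex and with *Grik1* in cerebellum. All 6 neighbouring pairs then differed in cortex and 5 of 6 in cerebellum, where *Grik3* and *Neto2* had a ratio of 1.02 (adjusted p = 0.477, exact sign-flip test), so which neighbours differ depends on the unit.

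**Figure D1:**
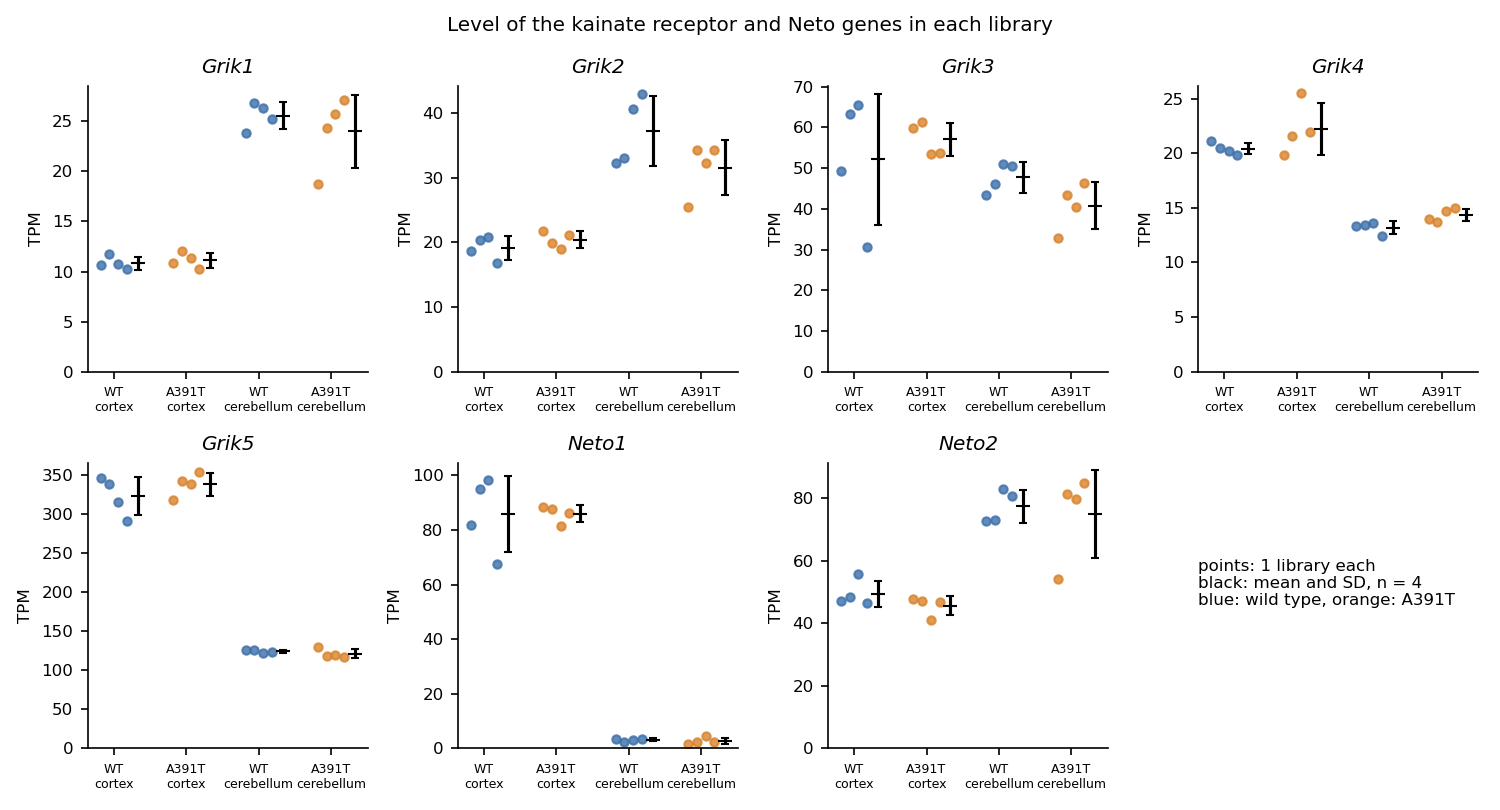
Level in TPM of each of the 7 genes in each library (points) by genotype and region, with the mean and SD of 4 libraries in black, on axes that start at 0. *Grik5*, *Grik4* and *Neto1* lay lower in all 8 cerebellum libraries than in any cortex library and *Grik1* and *Grik2* lay higher in all of them; *Grik3* overlapped, as did *Neto2* by the 54.3 TPM of 1 cerebellum library against the 55.7 TPM of 1 cortex library of the other genotype.

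The comparison of regions asked which subunit genes differed between cortex and cerebellum of the same genotype. In wild-type mice *Grik1* was higher in cerebellum, and *Grik5* and *Neto1* were higher in cortex, each by at least 2-fold at an adjusted p under 0.05 (edgeR quasi-likelihood test, Benjamini-Hochberg adjustment over all 16040 genes tested). These were 1 of 7 members toward cerebellum and 2 of 7 toward cortex. The same criteria called 10.5% of all genes tested as higher in cerebellum and 14.2% as higher in cortex. By the adjusted p alone, 3 members (*Grik1*, *Grik2* and *Neto2*) were higher in cerebellum and 3 (*Grik4*, *Grik5* and *Neto1*) in cortex, against 34.7% and 33.1% of all genes. *Grik3* did not pass. The median size of the log2 fold change over the 7 members was 0.80, beside 0.46 over all genes tested, and the signed medians were -0.28 and 0.02.

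In A391T mice the same comparison called *Grik5* and *Neto1* as higher in cortex and no member as higher in cerebellum by 2-fold, against 14.9% and 9.8% of the 16005 genes tested. By the adjusted p alone all 7 members passed, with *Grik1*, *Grik2* and *Neto2* higher in cerebellum and *Grik3*, *Grik4*, *Grik5* and *Neto1* higher in cortex, against 31.6% and 31.3% of all genes. The median size was 0.73 over the members and 0.45 over all genes tested. *Grik1* had a log2 fold change of 0.997, just short of the 2-fold criterion, and passed it with library totals in place of TMM, a scaling that moved the median of all genes from 0.03 to 0.16 in A391T mice and from 0.02 to 0.14 in wild-type mice, and turned no member's direction. It also passed with no filter on low counts and with all 16 libraries in one model. With the names of the RPKM table the 2-fold criteria called 3 members in wild-type and 2 in A391T mice, as before. With only the mice named alike in both they also called 3 and 2, while by the adjusted p alone *Grik2* (log2 fold change 0.45) and *Neto2* (0.45) did not pass in A391T mice, where each group then had 2 libraries. In bulk tissue, fewer cells of a type and less RNA per cell cannot be told apart.

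*Neto1* (ENSMUSG00000050321, plus strand of chromosome 18, 86564344 to 86671289 in NCBIM37) showed the largest region difference of the 7. Neto1 also associates with NMDA receptors in addition to its role at kainate receptors. For this and the following genes, cortex values are given in the order CTX447, CTX448, CTX479 and CTX480 for wild type and CTX445, CTX446, CTX461 and CTX462 for A391T, and cerebellum values in the same order of mice. In cortex *Neto1* had 82.0, 95.2, 98.4 and 67.7 TPM in wild-type mice, and 88.5, 87.6, 81.6 and 86.1 TPM in A391T mice. In cerebellum it had 3.26, 2.27, 3.13 and 3.595 TPM in wild-type mice, and 1.63, 2.21, 4.49 and 2.48 TPM in A391T mice. The lowest cortex library therefore lay far above the highest cerebellum library. The log2 fold change of cerebellum over cortex was -4.96 (SE 0.15, adjusted p = 2.35e-10, edgeR) in wild-type mice, a level 31.1-fold higher in cortex. It was -5.11 (SE 0.22, adjusted p = 3.05e-08, edgeR) in A391T mice, a level 34.6-fold higher in cortex. Within a mouse, the cortex level was from 18.2 to 54.3 times the cerebellum level. The cerebellum values rested on 46 to 100 counts per library, against 1430 to 2687 in cortex, so they were low but above the 3 counts that a count of 0 allows.

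*Neto2* (ENSMUSG00000036902, minus strand of chromosome 8, 88161136 to 88224653) went the other way. It had 47.0, 48.5, 55.7 and 46.5 TPM in wild-type cortex, and 47.7, 47.0, 41.2 and 46.7 TPM in A391T cortex. Its cerebellum levels were 72.7, 73.2, 83.1 and 80.7 TPM in wild-type mice, and 54.3, 81.3, 79.7 and 85.1 TPM in A391T mice. Within each genotype the regions did not overlap, and the level was higher in the cerebellum of 8 of 8 mice. The log2 fold change was 0.50 (SE 0.07, adjusted p = 4.66e-05, edgeR) in wild-type mice and 0.61 (SE 0.11, adjusted p = 0.000811, edgeR) in A391T mice. The *Neto1* share of the summed Neto TPM was accordingly 64.3% ± 2.26 in cortex against 3.62% ± 0.943 in cerebellum (SD, n = 8 each; two-sided exact permutation test, p = 0.000155, the smallest this test can give, adjusted p = 0.000214 over 11 such comparisons). This test takes the 16 libraries as independent, and the exact sign-flip test within mice gave p = 0.00781. Summed, *Neto1* and *Neto2* reached 133 ± 12.2 TPM in cortex against 79.2 ± 10.4 TPM in the cerebellum libraries (SD, n = 8 each; exact permutation test, adjusted p = 0.000214).

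*Grik5* (ENSMUSG00000003378, minus strand of chromosome 7, 25794872 to 25857388) encodes the high-affinity subunit GluK5. In cortex it had 346, 338, 315 and 291 TPM in wild-type mice, and 318, 342, 338 and 354 TPM in A391T mice. In cerebellum it had 125, 125, 122 and 124 TPM in wild-type mice, and 129, 119, 119.5 and 116 TPM in A391T mice. The regions were well apart in both genotypes. Cerebellum over cortex, the log2 fold change was -1.53 (SE 0.07, adjusted p = 4.24e-09, edgeR) in wild-type mice, a level 2.89-fold higher in cortex, and -1.58 (SE 0.08, adjusted p = 8.04e-08, edgeR) in A391T mice, 2.99-fold higher. Within a mouse, cortex exceeded cerebellum by 2.36 to 3.03 times.

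*Grik4* (ENSMUSG00000032017, minus strand of chromosome 9, 42326218 to 42752576), which encodes the other high-affinity subunit GluK4, was less abundant and changed less. It had 21.1, 20.4, 20.2 and 19.9 TPM in wild-type cortex, and 19.8, 21.5, 25.5 and 22.0 TPM in A391T cortex. Its cerebellum levels were 13.3, 13.4, 13.7 and 12.4 TPM in wild-type mice, and 14.0, 13.7, 14.7 and 15.0 TPM in A391T mice. No cerebellum library reached the lowest cortex library. The log2 fold change was -0.78 (SE 0.06, adjusted p = 6.86e-07, edgeR) in wild-type mice and -0.73 (SE 0.08, adjusted p = 3.4e-05, edgeR) in A391T mice. Its share of the kainate receptor TPM was 4.89% in cortex and 5.77% in cerebellum, with overlapping libraries (exact permutation test, adjusted p = 0.00479). In CPM the shares were 6.71% and 6.72% (exact permutation test, adjusted p = 0.97), so the difference in share depends on the unit.

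*Grik1* (ENSMUSG00000022935, minus strand of chromosome 16, 87896441 to 88289947) was the least abundant member in cortex. There it had 10.7, 11.7, 10.7 and 10.2 TPM in wild-type mice, and 10.9, 12.1, 11.4 and 10.3 TPM in A391T mice. In cerebellum it had 23.8, 26.9, 26.3 and 25.2 TPM in wild-type mice, and 18.8, 24.3, 25.8 and 27.1 TPM in A391T mice. All cerebellum libraries were above all cortex libraries. Cerebellum over cortex, the log2 fold change was 1.08 (SE 0.08, adjusted p = 2.37e-07, edgeR) in wild-type mice and 0.997 (SE 0.10, adjusted p = 1.27e-05, edgeR) in A391T mice.

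*Grik2* (ENSMUSG00000056073, minus strand of chromosome 10, 48819266 to 49508572) encodes GluK2, the subunit that pairs with GluK5 in the heteromer regarded as the prevalent kainate receptor of the brain. In cortex it had 18.7, 20.4, 20.8 and 16.8 TPM in wild-type mice, and 21.7, 19.9, 18.9 and 21.2 TPM in A391T mice. Its cerebellum levels were 32.3, 32.98, 40.7 and 42.9 TPM in wild-type mice, and 25.4, 34.3, 32.2 and 34.3 TPM in A391T mice. The regions did not overlap in either genotype. The log2 fold change was 0.80 (SE 0.10, adjusted p = 1.83e-05, edgeR) in wild-type mice and 0.52 (SE 0.08, adjusted p = 0.00038, edgeR) in A391T mice. Within a mouse, cerebellum exceeded cortex by 1.17 to 2.55 times.

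*Grik3* (ENSMUSG00000001985, plus strand of chromosome 4, 125167944 to 125391417) encodes GluK3, a subunit of low glutamate affinity. It had 49.2, 63.3, 65.5 and 30.6 TPM in wild-type cortex, and 59.7, 61.4, 53.4 and 53.7 TPM in A391T cortex. In cerebellum it had 43.3, 46.0, 51.02 and 50.6 TPM in wild-type mice, and 32.8, 43.3, 40.4 and 46.4 TPM in A391T mice. The wild-type regions overlapped, with CTX480 below every wild-type cerebellum library, and the A391T regions did not overlap. Cerebellum over cortex, the log2 fold change was -0.28 (SE 0.18, adjusted p = 0.201, edgeR) in wild-type mice and -0.59 (SE 0.09, adjusted p = 0.00019, edgeR) in A391T mice. Without CTX480 the wild-type value was -0.46 and passed the adjusted p. It was smaller without CTX448 (-0.18), without CTX479 (-0.16), with library totals (-0.15) and with only the mice named alike (-0.08), and did not pass. The difference between the genotypes in this region change was itself tested, and did not pass (log2 difference -0.30, SE 0.22, adjusted p = 0.769, edgeR). It was -0.12 without CTX480 and -0.64 with only the mice named alike, and passed in neither. CTX480 had the lowest level of its group for all 7 members in TPM, but for only 3 of them (*Grik2*, *Grik3* and *Neto1*) in CPM, together with the lowest total count of the 16 libraries and the highest share of reads that did not align uniquely, at 12.09%. It also had the highest summed blood markers of the 8 cortex libraries, at 313 TPM against 198 to 248 TPM, and the lowest summed GABAergic neuron markers of its group, at 336 TPM against 379.7 to 458 TPM. The part of these in the *Grik3* value was not tested.

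**Figure D2:**
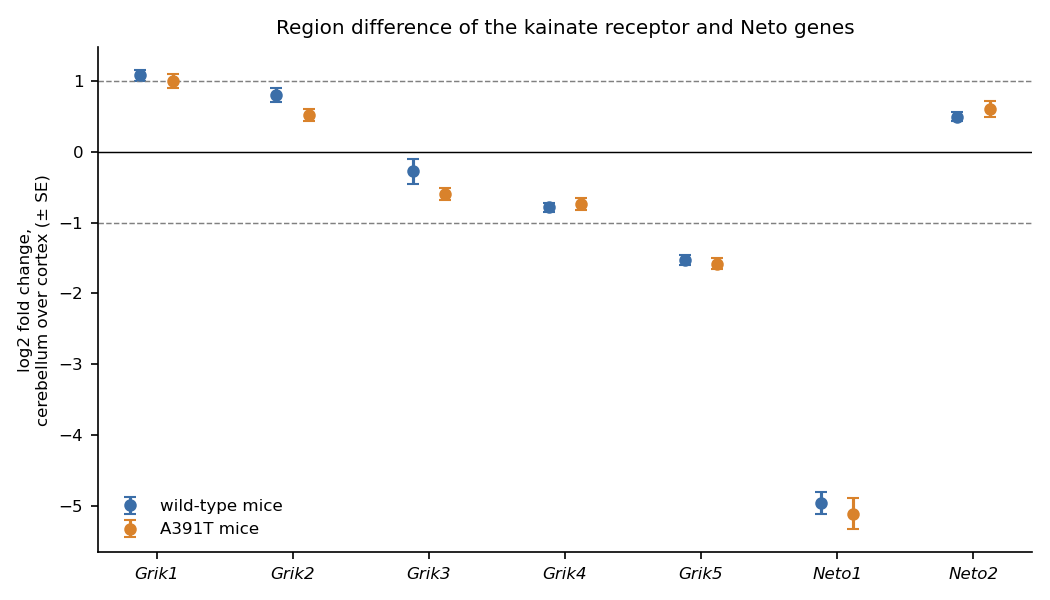
Log2 fold change of cerebellum over cortex for each of the 7 genes in wild-type (blue) and A391T (orange) mice, with the standard error of the edgeR fit; dashed lines mark a 2-fold change. *Neto1* lies lowest, at -4.96 and -5.11, then *Grik5* at -1.53 and -1.58, and *Grik1* highest, at 1.08 and 0.997.

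The subunit genes made up a different pool in each region. All 5 *Grik* genes together reached 437 ± 29.6 TPM in cortex against 239.6 ± 11.3 TPM in the cerebellum libraries (SD, n = 8 each), with no overlap of the libraries (two-sided exact permutation test, adjusted p = 0.000214). *Grik5* alone took 75.6% ± 2.03 of this pool in cortex and 51.2% ± 3.43 in cerebellum (SD, n = 8 each; exact permutation test, adjusted p = 0.000214). With *Grik4* added, the high-affinity subunits took 80.5% ± 2.26 in cortex and 57.0% ± 3.73 in cerebellum (SD, n = 8 each; exact permutation test, p = 0.000155). The libraries ranged from 77.6% to 84.4% in cortex and from 53.4% to 65.0% in cerebellum. In CPM the high-affinity subunits took 66.3% in cortex and 41% in cerebellum, and *Grik5* alone 59.6% and 34.3%, so whether they hold most of the pool in cerebellum depends on the unit. The subunits that form channels alone held the remainder. The *Grik1* share was 2.52% in cortex and 10.3% in cerebellum, the *Grik2* share 4.54% and 14.3% (both exact permutation test, adjusted p = 0.000214). The *Grik3* share was 12.4% and 18.4% (exact permutation test, adjusted p = 0.00038). In CPM the *Grik1* share was 1.72% and 5.98%, the *Grik2* share 9.06% and 24.2% and the *Grik3* share 22.9% and 28.8%, in the same direction. The summed Neto TPM per summed kainate receptor TPM was 0.306 ± 0.0253 in cortex against 0.33 ± 0.0368 in cerebellum, which overlapped (SD, n = 8 each; exact permutation test, adjusted p = 0.15). In CPM this ratio was 0.257 in cortex and 0.29 in cerebellum, with overlapping libraries, and passed the threshold (exact permutation test, adjusted p = 0.0221).

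**Figure D3:**
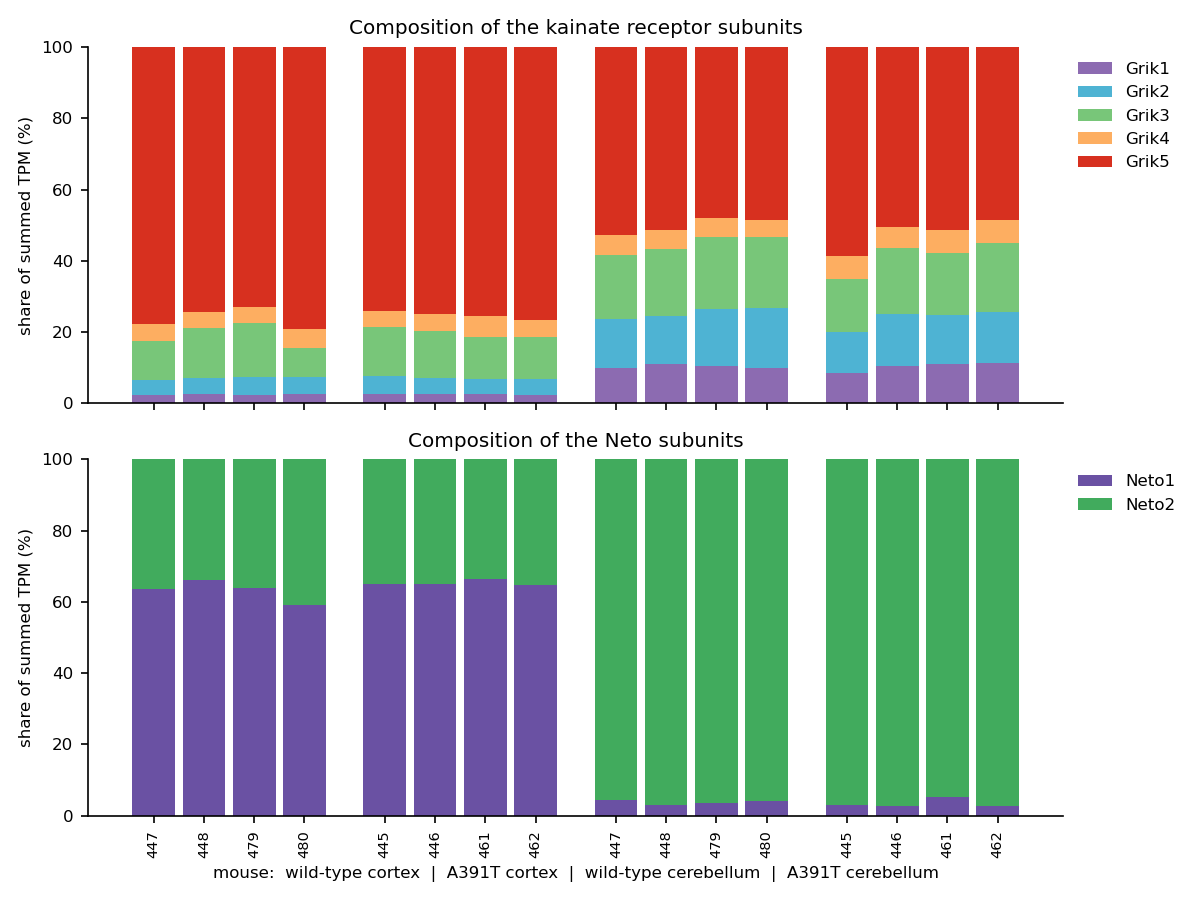
Share in percent of the summed TPM of the 5 kainate receptor genes (top) and of the 2 Neto genes (bottom), 1 bar per library in the order of the group names under the axis. *Grik5* fills from 72.9% to 79.0% of the cortex bars and from 48.0% to 58.7% of the cerebellum bars, and *Neto1* from 59.3% to 66.4% and from 2.65% to 5.33%.

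Kainate receptor genes were also a smaller part of all ionotropic glutamate receptor genes in cerebellum. Their share of the summed TPM of kainate, AMPA, NMDA and delta subunits was 26.7% ± 0.932 in cortex against 12.8% ± 0.351 in cerebellum (SD, n = 8 each; two-sided exact permutation test, p = 0.000155, adjusted p = 0.000214). In CPM it was 20.4% against 11.2%. In TPM the 8 cortex libraries ranged from 25.2% to 27.8% and the 8 cerebellum libraries from 12.3% to 13.3%. The members did not all move this way. From cortex to cerebellum the mean of *Grik5* fell most, from 330 to 122 TPM. *Grik3* fell from 54.6 to 44.2 TPM and *Grik4* from 21.3 to 13.8 TPM. *Grik1* rose from 11.0 to 24.7 TPM and *Grik2* from 19.8 to 34.4 TPM, and the ionotropic sum rose from 1633 to 1872 TPM. The share without *Grik5* was not tested. AMPA subunits took 51% in cortex and 51.4% in cerebellum, NMDA subunits 19.1% and 31.3%, and delta subunits 3.18% and 4.53%, given as values with no test. Of the 4 AMPA, 7 NMDA and 2 delta subunit genes, 3, 4 and 2 passed both region criteria in wild-type mice, in either direction, against 24.7% of all genes tested.

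The labelled regions were checked against markers of their cells. The summed level of 5 cortical projection neuron markers was 366 to 435 TPM in the cortex libraries and 30.0 to 39.5 TPM in the cerebellum libraries. For 4 granule cell markers it was 8.96 to 24.1 TPM in cortex and 1975 to 2559 TPM in cerebellum, and for 4 Purkinje cell markers 31.9 to 42.7 TPM and 3165 to 3735 TPM. For 3 GABAergic neuron markers it was 332.5 to 458 TPM in cortex and 639 to 684 TPM in cerebellum, and for 2 oligodendrocyte precursor markers 41.3 to 52.4 TPM and 18.2 to 22.7 TPM. Hippocampal markers, 4 in number, summed to 10.2 to 14.1 TPM and 6.58 to 8.64 TPM, and 3 blood markers to 198 to 313 TPM and 255 to 363 TPM. No marker of these lists was at 0 in any group. The A391T cerebellum library CBLM445 had the lowest *Grik1*, *Grik2*, *Grik3*, *Neto1* and *Neto2* levels of the 8 cerebellum libraries and the highest *Grik5* level, together with the lowest granule cell sum (1975 TPM) and the highest Purkinje cell sum (3735 TPM). It also had the highest blood sum (363 TPM), the lowest projection neuron sum (30.0 TPM) and the highest total count (27678440) of the 8 cerebellum libraries. Its shares of reads on no gene (10.21%) and not uniquely aligned (8.41%) were the lowest of them. The part of cell makeup and of these read counts in the levels was not tested. Striatal markers, of which 6 were summed, ranged from 265 TPM in CTX461 to 907 TPM in CTX462, both A391T, and from 250 to 310.5 TPM in cerebellum. Choroid plexus markers ranged from 42.9 to 8081 TPM among the cerebellum libraries and from 8.64 to 49.7 TPM among the cortex libraries.

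Whether the A391T mutation went with a change in these genes was compared within each region. In cortex, 0 of 7 members passed an adjusted p of 0.05 (edgeR), 0 had an unadjusted p under 0.05 and 0 passed with DESeq2. Of 15815 genes edgeR called 0.0126%, and 748 had an unadjusted p under 0.05. DESeq2 called 16 of the 25679 genes with at least 1 count. The log2 differences of A391T minus wild type ran from -0.13 for *Neto2* (SE 0.07) to 0.11 for *Grik3* (SE 0.17). The median size was 0.07 over the members, beside 0.07 over all genes tested. The *Grik3* difference turned to -0.06 without CTX480, and was 0.21 without CTX448 and 0.23 without CTX479. With the names of the RPKM table *Grik3* had 0.197 and *Neto2* -0.008, and with only the mice named alike they had 0.32 and -0.14. *Neto2* was at -0.08 without CTX461 and at -0.085 without CTX479.

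In cerebellum, 0 of 7 members passed (edgeR), 1 had an unadjusted p under 0.05 and 0 passed with DESeq2. Of 15668 genes edgeR called 0%, and 1340 had an unadjusted p under 0.05. DESeq2 called 27 of the 25443 genes with at least 1 count. *Grik4* was the member with an unadjusted p under 0.05, at 14.3 ± 0.589 TPM in A391T and 13.2 ± 0.562 TPM in wild-type mice (SD, n = 4 each), a log2 difference of 0.17 (SE 0.07, adjusted p = 0.532, edgeR). By the names of the count files its libraries ran from 13.74 to 14.97 TPM in A391T and from 12.38 to 13.65 TPM in wild-type mice. With the names of the RPKM table *Grik4* ran from 13.32 to 13.96 TPM in A391T and from 12.38 to 14.97 TPM in wild-type mice, and the log2 difference was 0.03. The share of all genes with genotype groups apart in this way was not counted. *Grik2* had 31.6 ± 4.22 TPM in A391T and 37.2 ± 5.35 TPM in wild-type mice (SD, n = 4 each), a log2 difference of -0.19 (SE 0.10, adjusted p = 0.532, edgeR). *Grik3* had 40.8 ± 5.83 and 47.7 ± 3.74 TPM (SD, n = 4 each), a log2 difference of -0.18 (SE 0.08, adjusted p = 0.532, edgeR). With only the mice named alike *Grik2* had -0.375 and *Grik3* -0.31, and without CBLM480 *Grik2* had -0.12. *Neto1* went from -0.14 to -0.50 with the names of the RPKM table and to -0.70 with only the mice named alike. The median size over the members was 0.14, beside 0.13 over all genes tested.

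The region by genotype interaction, fitted over the 16 libraries, asked whether the region change differed between genotypes. Of the 7 members 0 passed (edgeR), 0 had an unadjusted p under 0.05 and 0 passed with DESeq2. By edgeR 0% of 16589 genes were called, 805 of which had an unadjusted p under 0.05, and DESeq2 called 1 of 27196 genes with at least 1 count. The interaction ran from -0.30 for *Grik3* to 0.12 for *Neto2* (SE 0.13, and 0.07 to 0.225 when 1 library was left out, the lowest without CBLM462 and the highest without CBLM445), and *Grik2* had -0.27 (SE 0.13, adjusted p = 0.769, edgeR). With the names of the RPKM table, and with only the mice named alike in both, again 0 of 7 members passed in cortex, in cerebellum and in the interaction (edgeR). An unadjusted p under 0.05 was then reached by 0 members in cortex under both, by 0 and 2 in cerebellum and by 1 and 2 in the interaction. Over all genes these were 747 of 15815 and 843 of 15930 in cortex, 1226 of 15668 and 1378 of 15831 in cerebellum and 1578 of 16589 and 1350 of 16755 in the interaction. The *Neto2* interaction turned to -0.17 and -0.05, and that of *Neto1* went from -0.14 to -0.585 and -0.78. With only the mice named alike the *Grik2* interaction was -0.515 and that of *Grik3* -0.64. A missed threshold does not show that the genotypes were alike. *Slc39a8* itself had 1.63 to 2.79 TPM in the 8 cortex and 2.39 to 3.16 TPM in the 8 cerebellum libraries, with no genotype difference past the threshold (adjusted p = 1 in cortex and 0.925 in cerebellum, edgeR). A substitution cannot be read from counts per gene, so this level does not check the genotype labels.

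**Figure D4:**
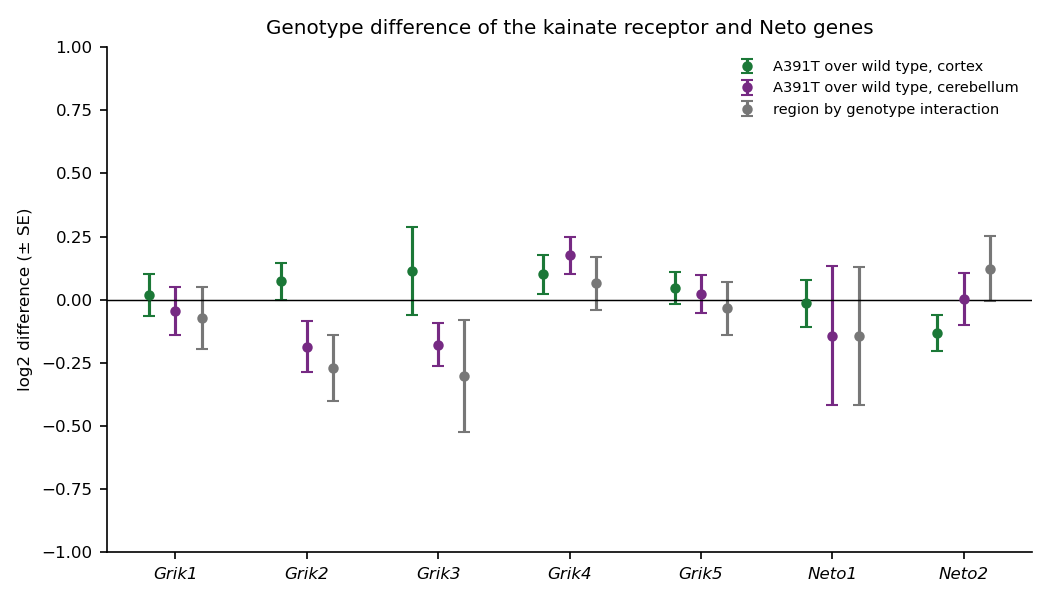
Log2 difference of A391T minus wild type in cortex (green) and cerebellum (purple), and the region by genotype interaction (grey), for each of the 7 genes by the names of the count files, with the standard error of the edgeR fit. The values run from -0.30 for the *Grik3* interaction to 0.17 for *Grik4* in cerebellum, and none passed an adjusted p of 0.05.

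Genes that handle kainate receptors were counted in 5 lists with 32 genes, 31 of which were tested. They hold scaffolds and trafficking partners, ubiquitin and SUMO pathway genes, RNA editing enzymes, synaptic organisers and kinases. In wild-type mice 7 of the 31 passed both region criteria, all of them toward cortex, and 21 passed the adjusted p, 9 toward cerebellum and 12 toward cortex, where 24.7% of all genes tested passed both criteria (14.2% toward cortex) and 67.8% the adjusted p. Their median log2 fold change was -0.19, beside 0.02 over all genes tested. *Camk2a*, which encodes the alpha subunit of calcium/calmodulin-dependent kinase II, had the largest change, with a log2 fold change of -5.15 (adjusted p = 2.05e-10, edgeR). *C1ql3*, a secreted C1q-like synaptic organiser, had -3.55, and the protein kinase C gene *Prkca* -1.5.

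Of the 12 scaffolds and trafficking partners, 9 passed the adjusted p in wild-type mice, 7 toward cortex and 2 toward cerebellum, and 4 toward cortex passed both criteria. Of all genes tested 67.8% passed the adjusted p, 33.1% toward cortex and 34.7% toward cerebellum, and 14.2% passed both criteria toward cortex. The 4 partners past both criteria are genes of PDZ scaffolds. *Grip1* had a log2 fold change of -1.59 and *Grip2* of -1.11. *Dlg4*, which encodes PSD-95, had -1.23 and *Dlg3*, which encodes SAP102, had -1.08, all with an adjusted p under 0.05 (edgeR). Other PDZ protein genes of the list, named after their values were seen, had 0.26 (*Pick1*), -0.325 (*Dlg1*) and -0.51 (*Cask*), which passed the adjusted p alone, and -0.35 (*Dlg2*), which did not pass. None of the 7 ubiquitin and SUMO pathway genes and none of the 3 RNA editing enzymes passed both criteria in either genotype. In wild-type mice 3 and 2 of them passed the adjusted p, all toward cerebellum, against 34.7% of all genes. In A391T mice 4 and 2 passed it, against 62.8% of all genes. Among them *Klhl24* (-0.29) and the deaminase gene *Adar* (-0.43) were toward cortex, while *Adarb2*, one of those that passed in wild-type mice, did not pass. The highest wild-type values, named after they were seen as were the genes of the sentence before, were those of *Senp1*, a SUMO protease, with 0.90, *Klhl17*, the adaptor actinfilin that targets GluK2 for degradation, with 0.87, and *Adarb1*, the deaminase ADAR2, with 0.86. In A391T mice 8 of the 31 passed both criteria, all toward cortex, against 24.7% of all genes in either direction and 14.9% toward cortex. The adjusted p alone was passed by 22 of the 31, against 62.8% of all genes. In neither genotype comparison and not in the interaction did any of the 31 pass the adjusted p (edgeR).

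For each member the 3 genes with the most similar profile were taken by the root mean square difference of mean-centred log2 CPM over the 16 libraries, among 16589 genes. For *Neto1* they were *Cobl*, *Camk2a* and *Htr2a*, at 0.22 to 0.23 log2 units, where the median gene was at 2.55. For *Grik5* they were *Rapgefl1*, *Ptp4a3* and *B4galt2* (0.07 to 0.08, median 0.84), and for *Grik4* they were *Ccny*, *Lancl2* and *Thra* (0.08 to 0.09, median 0.51). For *Grik1* they were *Tmem25*, *Trmt2b* and *Acsbg1* (0.08, median 0.59), and for *Grik2* they were *Specc1l*, *Osbpl7* and *Tpcn1* (0.08 to 0.09, median 0.46). For *Grik3* they were *1110018G07Rik*, *Cdc42bpb* and *Dync1h1* (0.10, median 0.47), and for *Neto2* they were *Zfp719*, *Ublcp1* and *Golph3l* (0.09, median 0.43). For most members these profiles are mostly the region difference, so the measure finds genes with a region difference of similar size. This holds less for *Grik3*, with a region difference of -0.40 log2 units against -0.28 for *Cdc42bpb*. Its wild-type cortex libraries alone ran from 30.6 to 65.5 TPM. No member was among the 3 nearest genes of another member.

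The windows around the annotated gene starts are shown for *Grik5* and *Grik4*, higher in cortex, and for *Grik2* and *Neto2*, higher in cerebellum, to set the letters of both directions side by side. They are RefSeq promoter windows of 300 bases (250 before and 50 after the start) in GRCm38.p6, a later build than the NCBIM37 used for the gene positions above, and are written along the gene's own strand. Capitals mark the GC box letters GGGCGG, bound by Sp1-type factors, on either strand. The windows lie on the minus strand at chr7:25072320-25072619, chr9:42944322-42944621, chr10:49788705-49789004 and chr8:85700875-85701174, in the order shown.
Grik5: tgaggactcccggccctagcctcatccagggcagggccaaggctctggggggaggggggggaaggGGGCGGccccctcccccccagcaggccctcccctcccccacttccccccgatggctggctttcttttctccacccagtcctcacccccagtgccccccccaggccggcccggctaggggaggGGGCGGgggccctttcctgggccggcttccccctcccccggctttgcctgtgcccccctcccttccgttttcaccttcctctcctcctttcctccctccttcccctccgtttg
Grik4: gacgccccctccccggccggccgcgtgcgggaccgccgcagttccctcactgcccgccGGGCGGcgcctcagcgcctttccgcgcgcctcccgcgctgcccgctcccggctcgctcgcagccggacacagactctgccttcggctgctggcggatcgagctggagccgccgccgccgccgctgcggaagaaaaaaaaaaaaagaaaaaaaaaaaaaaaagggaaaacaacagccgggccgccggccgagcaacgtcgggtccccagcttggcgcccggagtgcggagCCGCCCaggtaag
Grik2: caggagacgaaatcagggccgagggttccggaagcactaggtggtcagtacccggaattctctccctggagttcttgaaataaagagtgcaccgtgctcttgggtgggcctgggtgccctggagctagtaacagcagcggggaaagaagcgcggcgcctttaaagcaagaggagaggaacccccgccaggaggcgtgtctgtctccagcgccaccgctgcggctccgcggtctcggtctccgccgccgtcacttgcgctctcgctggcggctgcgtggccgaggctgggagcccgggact
Neto2: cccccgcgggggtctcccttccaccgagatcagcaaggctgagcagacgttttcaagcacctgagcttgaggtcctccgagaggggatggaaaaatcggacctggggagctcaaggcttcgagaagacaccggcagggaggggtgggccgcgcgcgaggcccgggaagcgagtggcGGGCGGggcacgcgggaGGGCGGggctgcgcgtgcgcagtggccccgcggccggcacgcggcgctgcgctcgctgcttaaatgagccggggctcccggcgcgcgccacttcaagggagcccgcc

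Entries were found for 5 of the 7 members (*Grik2*, *Grik3*, *Grik4*, *Grik5* and *Neto2*). The letters GGGCGG, searched on both strands, were found 2 times in the windows of *Grik5*, *Grik4* and *Neto2*, 7 times in that of *Grik3* and not in that of *Grik2*, and 35.7% of all 32851 windows held them. TATAAA, held by 13.6% of all windows, and the E-box CAGCTG, held by 16.3%, were in none of the windows of these 5 genes. *Grik3* had 50 CpG dinucleotides, *Grik4* 42, *Neto2* 36, *Grik2* 26 and *Grik5* 10, where the median window had 7 and the upper quartile was 20. No window was found for *Grik1* and *Neto1*. The part of these letters in the region differences was not tested. A further *Neto2* window, from another annotated start, held no CpG and no GC box.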

How the data were processed

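RNA of snap-frozen cortex and cerebellum was polyA selected, made into directional libraries and read at 50 bases. Per the labels and the methods, the authors aligned to mm9 with STAR and used HTSeq, unstranded, for counts on Ensembl genes; the deposited counts are whole numbers with no normalization. The authors also deposited RPKM values with a gene length per gene, which were used here for names and lengths and not for tests. Reads on no gene (10.21% to 13.17%), ambiguous between genes (2.20% to 2.75%) or not uniquely aligned stayed out. The exons of the 7 members share no base with another gene of the NCBIM37 annotation. TPM was computed from the counts and the table's lengths.

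Counts were tested with edgeR 4.0.16 (R 4.3.3; filterByExpr, TMM, quasi-likelihood test, Benjamini-Hochberg adjustment over all genes), within genotype for regions and within region for genotypes. Calls took an adjusted p under 0.05, with a 2-fold change for regions. On simulated counts the test was checked to recover known changes, which were set larger than the genotype differences found here. The check does not cover changes as small as those. DESeq2 1.42.0 was an alternative. Shares, sums and ratios used exact tests in Python 3.11.15. The permutation tests between regions did not pair the libraries of a mouse. A paired test was run only for the kainate share, the *Grik4* and *Grik5* share and the *Neto1* share. Libraries of a group are separate mice. The study states that both regions came from the same animals. The correlation of the deviations of a mouse's regions from their group means ran from -0.099 to 0.119, and the mouse number was an alternative as a replicate block. The 7 members, the lists and the rule for named genes (all members, *Slc39a8*, up to 10 listed partners with the largest region change past both criteria, and the 3 nearest profiles per member) were chosen with earlier results of these data known. A further 10 partners were named after their values were seen, as stated beside them. Of the listed genes 1 is not reported here. For *Park2* and *Cux2*, with 2 identifiers each, the one with more counts was used.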

Additional observations from a re-analysis of the deposited data

Results flagged for a closer look

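Among 28 groups of 4 libraries (7 genes in 4 groups), 1 held a library that stood apart by Dixon's ratio (0.852), and chance alone flags about 1 in 20 groups. It was the *Neto2* level of CTX461, an A391T cortex library, at 41.24 TPM, where the other 3 libraries had 46.7 to 47.7 TPM. The same library had the lowest summed striatal markers of the 8 cortex libraries, at 265 TPM against 594 to 907 TPM, and the highest *Grik4* level, at 25.5 TPM against 19.8 to 22.0 TPM. It had the lowest summed GABAergic neuron markers of the 8 as well, at 332.5 TPM, and the highest summed projection neuron and oligodendrocyte precursor markers, at 435 and 52.4 TPM. The part of these in the *Neto2* value was not tested. Without this library the *Neto2* log2 difference of A391T minus wild type in cortex was -0.08 and, as with it, did not pass (edgeR).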

How the results depend on the processing

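With no fold criterion the region comparisons called 6 members in wild-type and 7 in A391T mice in place of 3 and 2. The A391T count was 3 with library totals, with no low-count filter and with all 16 libraries in one model, since *Grik1* then passed. With mouse as a replicate block the region criteria still called 3 and 2 members and the interaction 0, and the cerebellum-minus-cortex difference in percentage points was -13.9 for the kainate share, -23.5 for the *Grik4* and *Grik5* share and -60.7 for the *Neto1* share (exact sign-flip test over 8 paired mice, p = 0.00781 each). With CPM these were -9.19, -25.3 and -52.9, the Neto to kainate receptor ratio difference (0.0239) became 0.0325 and passed, the *Grik4* share difference (0.879) became 0.0133 and no longer passed, and the neighbouring pairs that differed went from 4 to 6 in cortex and from 6 to 5 in cerebellum. Leaving out 1 library at a time, the region counts ranged from 3 to 3 and from 2 to 3 (*Grik1* passed in A391T mice without CTX446, CBLM445 or CBLM446), the genotype and interaction counts stayed at 0, the shares ranged from -14.1 to -13.8, from -24.7 to -23.0 and from -61.4 to -60.4, and the pairs that differed from 4 to 5 in cortex (5 without CTX480) and from 6 to 6 in cerebellum. The *Grik3* genotype difference in cortex ranged from -0.0626 to 0.228 when 1 library was left out, turning sign without CTX480. The *Neto2* interaction turned to -0.169 with the names of the RPKM table and to -0.0502 with only the mice named alike; the cause was not tested. No member changed sign in a region comparison under any of the 17 alternative fits, while 4 of 7 did in each genotype comparison and in the interaction. The names of the RPKM table with the replicate block, and gene lengths from the NCBIM37 annotation (which differ from the table's mainly for *Grik2* and *Grik4*), were added after the data were seen and changed no call; the tests of the summed levels, the Neto to kainate receptor ratio and the 5 single-gene shares, in TPM and in CPM, were also added then. Depth limits *Neto1* in cerebellum most, at 46 to 100 counts.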
